A study of Oryctolagus cuniculus with 8 samples.

Results

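The transcripts of 6 rabbit genes of the epithelial cell surface, CXADR, CLDN1, PDZK1, LIPH, CA4 and ANPEP, were followed across induced pluripotent stem (iPS) cells, embryonic stem (ES) cells and somatic cells. Every non-control probe annotated with the RefSeq transcript of one of them was taken, which gave 14 of the 43584 probes used and 6 of the 680 genes that could be named on the array. CXADR (NM_001163251) and CLDN1 (NM_001089316) had 4 probes each, PDZK1 (NM_001082151) and LIPH (NM_001082106) had 2 each, and CA4 (NM_001082372) and ANPEP (NM_001082326) had 1 each. The genes were chosen by what they encode with measured differences of these arrays known, those from somatic cells among them. Differences from somatic cells are therefore given as a description with no test.

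An epithelium separates 2 spaces by sealing its cells together at junctions near their apical border and by placing transporters and enzymes on the apical face. CXADR, the coxsackievirus and adenovirus receptor, is an immunoglobulin-family adhesion protein found at tight junctions, and CLDN1 is a claudin, one of the membrane proteins that form the tight junction strands. PDZK1 is a scaffold that holds transporters beneath the apical membrane, and it also binds the HDL receptor SCARB1 in mouse liver. LIPH is a membrane-associated phospholipase that makes lysophosphatidic acid, CA4 is a carbonic anhydrase anchored to the outer face of the membrane, and ANPEP is aminopeptidase N, a peptidase of the intestinal and renal brush border. Pluripotent stem cells themselves grow as compact, epithelium-like colonies in human culture.

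The study hybridised 8 one-colour arrays, each to total RNA from cultured cells of the Dutch rabbit strain. The late passage iPS group held the liver-derived line iPS-L1 at passage 23 and the stomach-derived line iPS-S1 at passage 22, and the early passage iPS group held the same lines at passages 7 and 6. The ES group held the lines rdES4 and rdES2-1, and the somatic group held 1 culture of liver cells and 1 of stomach cells. ES and iPS cells grew in stem cell medium and somatic cells in somatic cell medium, so the medium and the cell type cannot be told apart in any comparison with somatic cells. Each iPS origin is represented by 1 line and each somatic organ by 1 culture, and the labels do not give the reprogramming factors or their vector. The p-values below set each difference against a spread between these few samples, which may in part be technical. That spread is shared by all groups of a fit, so the gap between liver and stomach cells enters comparisons among iPS and ES lines too.

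Levels are log2 intensities relative to the 75th percentile of the same array, so that 0 is that percentile. A probe's level was never set against another probe's, because probes differ in their efficiency. The percentile lay between 273.8 and 341.0 intensity units on the 6 iPS and ES arrays, and at 163.4 and 154.4 units on the arrays of liver and stomach cells. Between 62.4% and 64.7% of all probes passed the scanner's test for a signal well above background on the iPS and ES arrays, against 57.8% for liver and 58.4% for stomach cells. Liver and stomach cells also carried the markers of another cell class. All 4 named genes of a fibroblast and mesenchyme list of 7 symbols (DCN, MGP, CAV1 and MMP2) were higher in somatic cells without overlap, and their summed signal, in multiples of the array's 75th percentile, was 2.08 to 3.14 in iPS cells and 1.88 to 2.21 in ES cells, against 106 to 198 in somatic cells. The smooth muscle list gave sums of 30.7 to 49.3 in iPS cells, 25.2 to 35.8 in ES cells and 98.2 to 254 in somatic cells, with all 4 genes higher in somatic cells. Of the 6 named hepatocyte genes, 5 (TF, HP, HPX, APOE and RBP4) were well above background in all 8 samples and ALB in none. The summed signal of the 6 was 3.43 to 4.04 in iPS cells and 4.38 to 5.93 in ES cells. It was 4.65 in liver cells, within the ES range, and 20.0 in stomach cells. Of the detected genes only RBP4 was higher in both somatic cultures without overlap, and TF was lower in both without overlap. Of the 3 named gastric genes, ATP4B was likewise undetected throughout. The sums were 0.135 to 0.196 in iPS cells and 0.171 to 0.181 in ES cells, against 0.159 in liver cells and 0.120 in stomach cells. These sums include the undetected ATP4B, which read highest in liver cells. Of 5 general epithelial markers (CDH1, EPCAM, KRT8, KRT18 and KRT19) none could be named here, so the epithelial character of the cultures was not analysed by them. In such bulk samples, fewer cells of a type and less RNA per cell cannot be told apart.

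Testing was limited to probes whose signal was well above background in both samples of at least 1 group, which kept 11 of the 14, and each of the 6 genes kept at least 1 of them. The 3 probes left out all belong to CLDN1 and were not well above background on any array. The brightest probe stands for each gene. In the plot of levels by array, CXADR, PDZK1, LIPH and CA4 separated the 6 iPS and ES arrays from the 2 somatic arrays, whereas CLDN1 and ANPEP did not.

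**Figure D1:**
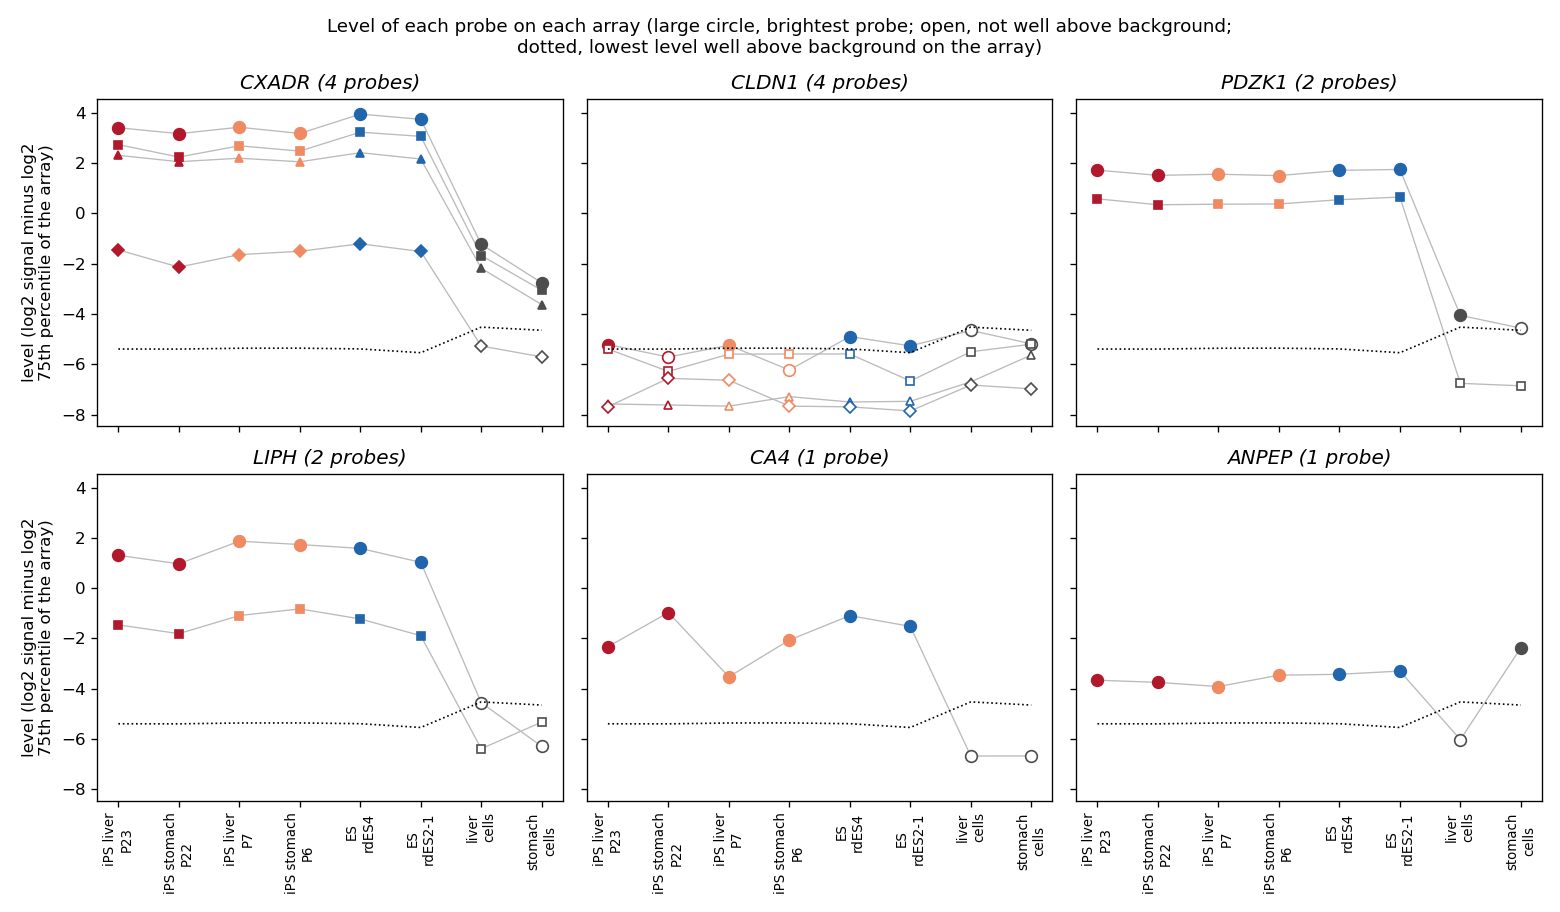
Level of every probe of the 6 genes on each array, in log2 units relative to the array's 75th percentile, with arrays ordered from late passage iPS lines to somatic cells; large circles are the brightest probe, open markers are not well above background, and the dotted line is the lowest level well above background on each array. The brightest CXADR probe lies between 3.17 and 3.95 on the iPS and ES arrays and at -1.23 and -2.76 in liver and stomach cells, and CA4 spans -3.53 to -0.97 within the iPS arrays.

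The junctional receptor CXADR gave a high signal in all pluripotent cultures. Its level was 3.41 in the liver line and 3.17 in the stomach line at late passage, 3.43 and 3.18 in the same lines at early passage, 3.95 in rdES4 and 3.74 in rdES2-1, against -1.23 in liver cells and -2.76 in stomach cells. The 4 iPS arrays lay close together, both ES arrays lay above them, and the somatic arrays lay far below with a wide gap between each other. The mean was 3.30 ± 0.17 in iPS lines (SD, n = 2 lines) and 3.85 ± 0.15 in ES lines (SD, n = 2), against -2.0 ± 1.08 in somatic cells (SD, n = 2). iPS lines therefore exceeded somatic cells by 5.29 ± 0.51 log2 units (SE), or 39.2-fold, and ES lines exceeded them by 5.84 ± 0.51 (SE), or 57.3-fold. With normexp background correction these differences were 4.07 and 4.57.

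The other CXADR probes gave the same order of pluripotent over somatic cells. The 2 that were measured on all 8 arrays put iPS lines 4.90 and 5.06 log2 units above somatic cells. The dimmest probe, at -2.14 to -1.21 on the iPS and ES arrays, was not well above background on either somatic array, and its signal was at least 7.47-fold higher in iPS lines and at least 9.34-fold higher in ES lines. For these lower bounds the somatic level was taken as the lowest signal well above background on each array, or as the probe's own where that was higher. An undetected signal can lie above that level, as PDZK1 did in stomach cells (-4.57 against -4.65). The bounds here and below are therefore a convention for the scanner's processed signal, and normexp differences can be smaller.

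The claudin gene CLDN1 was near the limit of detection everywhere. Its brightest probe read -5.21 in the liver line and -5.71 in the stomach line at late passage, -5.24 and -6.23 at early passage, -4.90 in rdES4 and -5.27 in rdES2-1, against -4.66 in liver cells and -5.18 in stomach cells. It was well above background on 4 arrays, namely both ES arrays and the liver iPS line at both passages, and dimmer than that in the stomach iPS line and in both somatic cultures. Relative to the 75th percentile, which was itself dimmer on the somatic arrays, the lowest level well above background lay higher there. It was -4.52 and -4.65 in liver and stomach cells, against -5.54 to -5.36 on the iPS and ES arrays. No fold between pluripotent and somatic cells can therefore be given for CLDN1. Of the 2 tight junction genes, CXADR therefore has a measured difference between the cell classes and CLDN1 has none that this array can give.

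The apical scaffold gene PDZK1 had the least spread among pluripotent cultures. Its level was 1.72 and 1.51 in the liver and stomach lines at late passage, 1.56 and 1.5 at early passage, 1.71 in rdES4 and 1.75 in rdES2-1, against -4.05 in liver cells and -4.57 in stomach cells. The 6 iPS and ES arrays lay in a narrow band, and of the somatic arrays only that of liver cells gave a signal well above background. iPS lines exceeded somatic cells by 5.88 ± 0.20 log2 units (SE), or 59.0-fold, and ES lines by 6.04 ± 0.20 (SE), or 65.7-fold, and with normexp by 2.96 and 3.0. At the second probe neither somatic array was well above background, and the excess was at least 32.0-fold for iPS lines and at least 36.3-fold for ES lines.

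LIPH, the phospholipase gene, was detected on all 6 pluripotent arrays and on neither somatic array. Its brightest probe read 1.31 and 0.97 in the liver and stomach lines at late passage, 1.87 and 1.74 at early passage, 1.58 in rdES4 and 1.03 in rdES2-1, against -4.55 in liver cells and -6.30 in stomach cells. The signal was at least 66.5-fold higher in iPS lines and at least 59.3-fold higher in ES lines than in somatic cells. With normexp the differences were 3.05 and 2.82 log2 units, smaller than those bounds. The second probe gave bounds of at least 9.78-fold and at least 8.16-fold.

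CA4, the anchored carbonic anhydrase gene, was detected in the same 6 cultures and varied most among them. It read -2.33 in the liver line and -0.97 in the stomach line at late passage, -3.53 and -2.06 at early passage, -1.09 in rdES4 and -1.52 in rdES2-1, against -6.67 in both liver and stomach cells. The stomach line at late passage was the highest array and the liver line at early passage the lowest of the 6. The bound against somatic cells was at least 5.15-fold for iPS lines and at least 9.72-fold for ES lines. With normexp background correction the difference was 0.37 log2 units for iPS lines and 0.86 for ES lines, against readings of 4.45 and 5.37 with the scanner's processed signal, which rest on somatic signals not well above background.

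ANPEP, the aminopeptidase N gene, did not separate the classes. It read -3.66 and -3.75 in the liver and stomach lines at late passage, -3.91 and -3.46 at early passage, -3.43 in rdES4 and -3.30 in rdES2-1, against -6.02 in liver cells, which was not well above background, and -2.37 in stomach cells. The stomach culture was the highest of the 8 arrays and the liver culture the lowest, with all pluripotent arrays between them. The mean difference from somatic cells, 0.50 ± 1.16 log2 units for iPS lines and 0.84 ± 1.16 for ES lines (SE), therefore depends on the somatic culture: without liver cells it was -1.32 and -0.99, and without stomach cells 2.33 and 2.66, the last pair resting on a liver signal not well above background. With the liver array raised to its detection limit the mean difference was -0.25 for iPS lines and 0.09 for ES lines, so no direction can be given for iPS or ES lines.

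**Figure D2:**
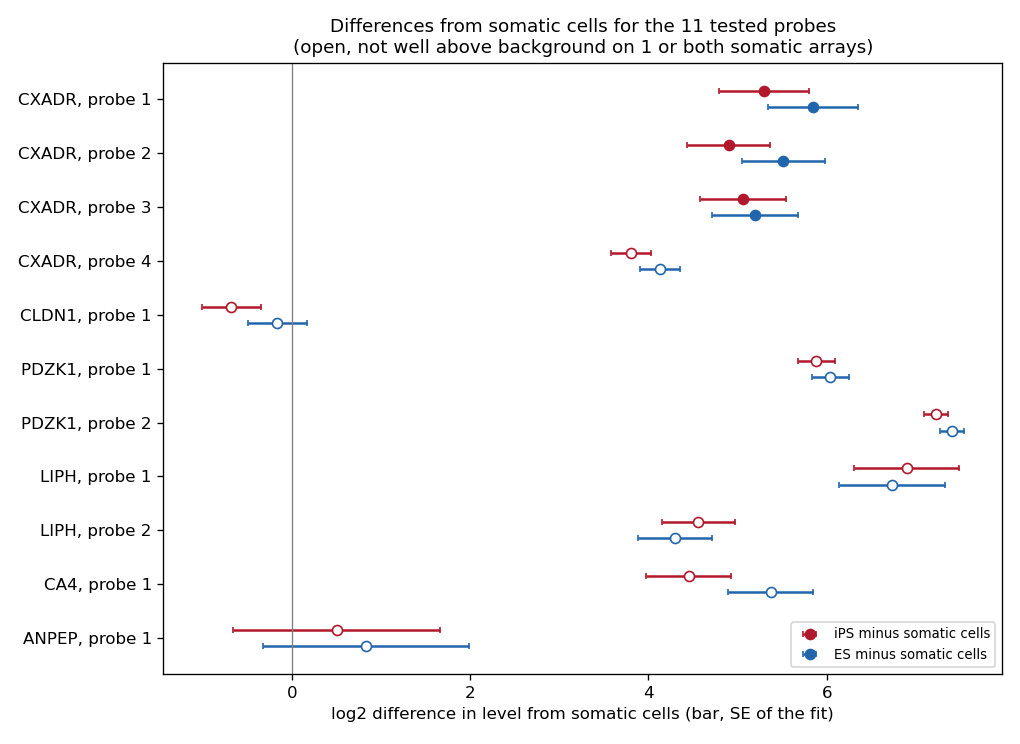
Difference in level from somatic cells for the 11 tested probes, in log2 units, for iPS lines (passages averaged, red) and ES lines (blue), with bars of 1 SE from the fit over all tested probes; open markers have 1 or both somatic arrays not well above background. The probes of CXADR, PDZK1, LIPH and CA4 lie between 3.81 and 7.40 and those of CLDN1 and ANPEP between -0.68 and 0.84, and no test is attached.

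Set beside the whole array, 4 of the 6 genes (CXADR, PDZK1, LIPH and CA4) were higher in iPS lines than in somatic cells without overlap, as were 39.7% of the 28854 tested probes, and the same 4 were higher in ES lines, as were 43.4%. Because this contrast was known when the genes were chosen, nothing is read from those counts. The median difference of the 6 genes was 4.87 for iPS lines and 5.60 for ES lines, against 0.016 and 0.067 over all tested probes. With dim somatic arrays raised to their detection limit, and CLDN1 left out because it has no bound, the median over 5 genes was 5.29 for iPS lines and 5.84 for ES lines. These are the CXADR values, which raising did not change, and the set lacks the low CLDN1, so the medians over 6 and 5 genes are not alike. For iPS lines raising lowered LIPH from 6.89 to 6.06, CA4 from 4.45 to 2.36 and ANPEP from 0.50 to -0.25, and left PDZK1 at 5.88. The arrays were spread over 3 slides. Within slide 1 the liver iPS line exceeded liver cells by 4.65 log2 units for CXADR and 5.69 for PDZK1, and by at least 69.1-fold for LIPH and at least 3.02-fold for CA4. ES line rdES4 exceeded liver cells there by 5.18 for CXADR and 5.76 for PDZK1, and by at least 68.8-fold for LIPH and at least 10.8-fold for CA4. Within slide 2, rdES2-1 exceeded stomach cells by 6.50 log2 units for CXADR, and by at least 79.6-fold for PDZK1, at least 51.2-fold for LIPH and at least 8.75-fold for CA4. The share of the difference from somatic cells that goes with the mesenchymal signal of those cultures was not tested.

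iPS lines were set against ES lines with both passages of each iPS line averaged, giving 2 lines against 2. The fit, limma's moderated test over all probes with Benjamini-Hochberg adjustment, called none of the 6 genes and 0% of the 28854 tested probes, of which 2135 had an unadjusted p below 0.05 and no member did. CA4 showed the largest difference among the members, with iPS lines 0.92 ± 0.48 log2 units below ES lines (SE; limma adjusted p = 0.758; 95% interval -2.14 to 0.31). CXADR was lower by 0.55 ± 0.51 in iPS lines (adjusted p = 0.860 in limma; interval -1.84 to 0.75), and its 4 probes gave -0.61 to -0.14. PDZK1 differed by -0.16 ± 0.20 (adjusted p = 0.913 in limma), with the narrowest interval of the 6 genes, -0.68 to 0.37. LIPH differed by 0.17 (interval -1.35 to 1.68), CLDN1 by -0.52 (-1.36 to 0.33) and ANPEP by -0.33 (-3.30 to 2.63). The interval widths rest on a spread shared by all groups, somatic cultures included. For ANPEP the SD was 2.58 in somatic cells, against 0.13 in iPS lines and 0.09 in ES lines. The CLDN1 value includes the stomach line, which was not well above background, and was -0.22 with such arrays raised to their detection limit. CXADR and ANPEP were lower in iPS lines without overlap, 2 of 6 genes, against 23.9% of tested probes that did not overlap in either direction.

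Within slide 1, which holds the liver iPS line and rdES4, the liver line minus rdES4 difference was -1.84 log2 units for CA4. It was -0.53 for CXADR, -0.36 for ANPEP, -0.07 for PDZK1 and 0.007 for LIPH, so CA4 stood furthest from the ES line there. With slide as a block the CA4 difference was -1.73 (limma adjusted p = 0.99967). The stomach line lay on slide 3, which held no other cells, so for that line slide and cell type cannot be told apart.

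**Figure D3:**
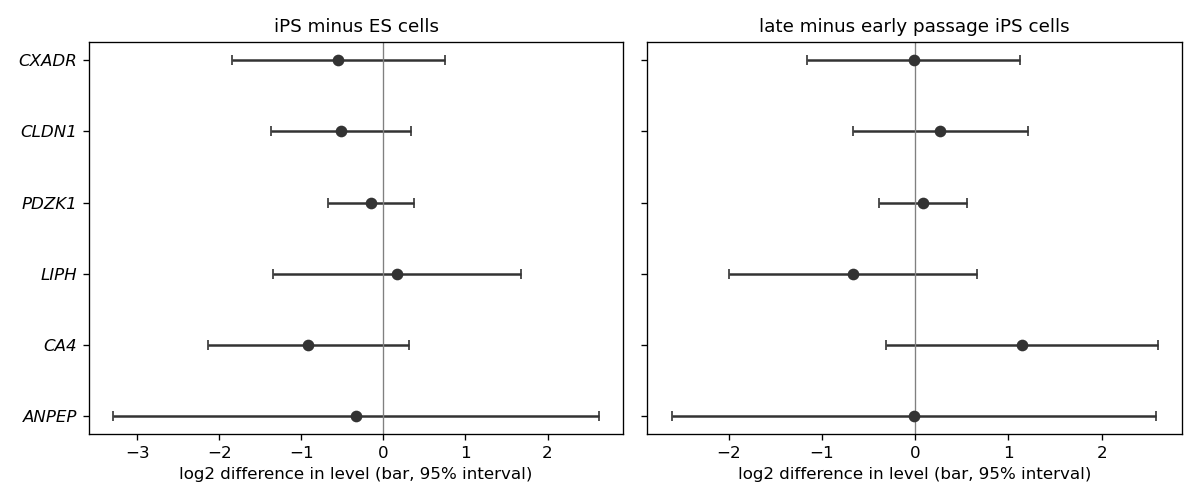
Difference in level for the brightest probe of each gene, in log2 units, between iPS and ES lines (left) and between late and early passage iPS cells (right), with bars for 95% intervals of the fit. All 12 intervals span 0, and they are narrowest for PDZK1 and widest for ANPEP. Their width includes the spread between the liver and stomach cultures, which the fit shares over all groups.

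Between passages the widest differences were those of CA4 and LIPH, and neither passed the test. CA4 was higher at late than at early passage by 1.20 log2 units in the liver line and by 1.09 in the stomach line, with a mean of 1.15 ± 0.60 (SE; 2.21-fold; limma adjusted p = 0.671; interval -0.31 to 2.60). A higher level at late passage of at least 1.09 in both lines was found for 245 of the 28854 tested probes, or 0.849%. LIPH was lower at late than at early passage by 0.56 in the liver line and by 0.77 in the stomach line, with a mean of -0.66 ± 0.55 (SE; limma adjusted p = 0.818; interval -2.0 to 0.67). A lower level at late passage of at least 0.56 in both lines was found for 1102 tested probes, or 3.82%. Both shares take the gene's own size as the threshold and are no test. The second LIPH probe did not pass either, with -0.37 in the liver line and -0.99 in the stomach line (mean -0.68 ± 0.40; adjusted p = 0.719 in limma). The late and early arrays of LIPH did not overlap at either probe, the only member of 6 for which this held, against 45.1% of tested probes.

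The other 4 genes gave smaller late minus early differences. CXADR differed by -0.01 (interval -1.15 to 1.13), PDZK1 by 0.09 (-0.39 to 0.56), ANPEP by -0.02 (-2.61 to 2.58) and CLDN1 by 0.27 (-0.66 to 1.21), which was -0.003 with the dim arrays of the stomach line raised to their detection limit. The fit called 0 of the 6 genes and 8 of 28854 probes (0.0277%), with 2415 probes and no member at an unadjusted p below 0.05. Because the same 2 lines were sampled at both passages, the fit was repeated on the iPS arrays alone with the line as a block. It left CA4 at 1.15 with an SE of 0.11 (limma adjusted p = 0.217) and LIPH at -0.66 with an SE of 0.12 (adjusted p = 0.255), and it too called none of the members.

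Each passage was also set against ES lines. At early passage CA4 was lower by 1.49 ± 0.60 log2 units in iPS cells (SE; 2.81-fold; limma adjusted p = 0.421; interval -2.95 to -0.03), and at late passage by 0.34 ± 0.60 (limma adjusted p = 0.952). Leaving out the liver line at early passage gave -0.76, and leaving out the stomach line there gave -2.22. LIPH was 0.50 higher at early passage (interval -0.84 to 1.83) and 0.17 lower at late passage (-1.50 to 1.17) than in ES lines. None of the 6 genes was called at early passage, where 12 of 28854 probes (0.0416%) were, nor at late passage, where 6 (0.0208%) were, and in both comparisons the same ES arrays served. At early passage 5 of the 6 genes did not overlap with ES lines (CXADR, PDZK1, CA4 and ANPEP lower, LIPH higher), against 48.6% of tested probes, and at late passage 2 did not (CXADR and ANPEP, both lower), against 43.6%.

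The organ of origin was compared as liver minus stomach, with 1 array a side and so no test. The liver line and liver cells lay on slide 1, stomach cells on slide 2 and the stomach line on slide 3, so origin and slide cannot be told apart here. CA4 was the member in which the iPS lines differed most: the liver line lay below the stomach line by 1.36 log2 units at late passage (2.56-fold) and by 1.46 at early passage (2.75-fold). A difference in that direction of at least 1.36 at both passages was found for 39 of the 28854 tested probes (0.135%). The somatic parents gave no comparison for CA4, being not well above background in both cultures.

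For CXADR and ANPEP the somatic cultures differed more than the iPS lines did. CXADR was 1.53 log2 units higher in liver than in stomach cells (2.89-fold; at least that size in 4.96% of tested probes), and its 2 other measured probes gave 1.38 and 1.44. The iPS lines differed for CXADR by 0.24 at late and 0.25 at early passage, and its other 3 probes gave 0.25 to 0.68 at late and -0.13 to 0.21 at early passage. ANPEP was at least 4.44-fold lower in liver than in stomach cells, whereas the liver iPS line differed from the stomach line by 0.09 at late and -0.45 at early passage. PDZK1 differed between the iPS lines by 0.21 at late and 0.06 at early passage, and LIPH by 0.34 and 0.13, while their somatic signals were too dim on at least 1 side to be set against each other.

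**Figure D4:**
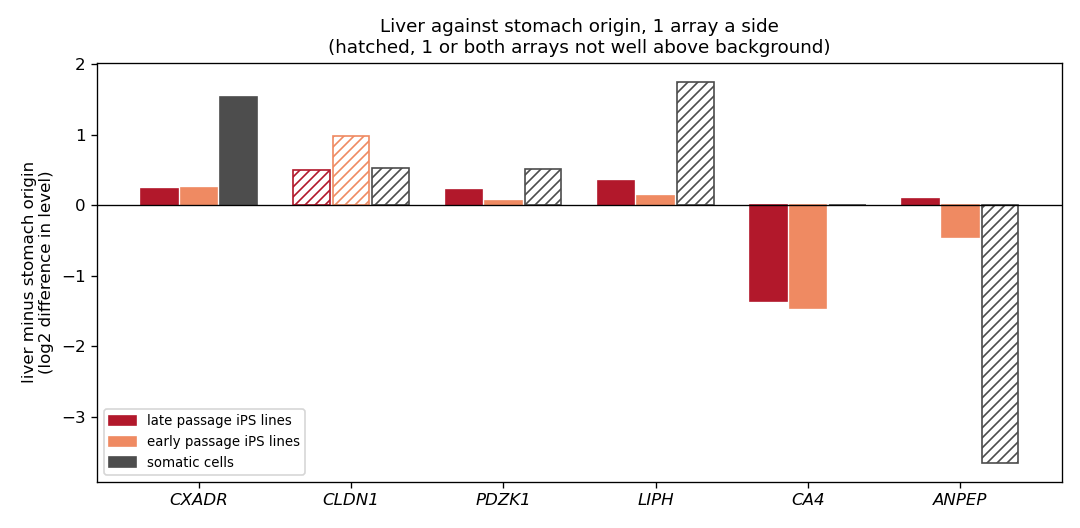
Liver minus stomach difference in level for the brightest probe of each gene, in log2 units, as bars for late passage iPS lines, early passage iPS lines and somatic cells, with 1 array a side and no error; hatched bars have 1 or both arrays not well above background. CA4 lies at -1.36 and -1.46 between the iPS lines, and CXADR at 1.53 between the somatic cultures but at 0.24 and 0.25 between the iPS lines.

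Profiles over the 8 arrays were compared by the root mean square difference of levels after each profile was centred on its own mean, as a description of all 510 other named genes with a tested probe. The profiles include the somatic arrays, so the likeness follows the difference from somatic cells that was known when the genes were chosen, and EDNRB, ADRA2A, CKMT2, LIM2, HSD11B2 and KCNJ11 were not well above background on either somatic array. CXADR lay closest to EDNRB, an endothelin receptor gene (0.325 log2 units), to PDZK1 (0.371) and to ADRA2A, an adrenergic receptor gene (0.494). PDZK1 lay closest to CXADR (0.371), EDNRB (0.387) and ADRA2A (0.438). LIPH lay closest to CKMT2 (0.436), EDNRB (0.594) and PDZK1 (0.599), and CA4 to LIM2 (0.507), HSD11B2 (0.608) and ADRA2A (0.637). ANPEP, by contrast, had CD38 (0.420), PRKCB (0.455) and SLC7A8 (0.694) as its nearest profiles, and CLDN1 had KCNJ11 (0.193), NPY4R (0.218) and KCNMB1 (0.245).

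Of 112 other symbols in 8 lists of junction, apical membrane and enzyme genes, 21 could be named on the array and 15 were tested, none of them called for iPS against ES lines, late against early passage or either passage against ES lines. Against somatic cells the 15 genes did not share a direction. The lists were chosen with earlier results of these data known, and the genes named here after their values were seen. Their calls and p-values against somatic cells are therefore a description. PRKCZ, a polarity kinase at tight junctions, was higher in iPS lines than in somatic cells by 2.88 ± 0.19 log2 units (limma adjusted p = 0.000313). MME, neprilysin, was the other gene that passed as higher, by 2.90 ± 0.84 (adjusted p = 0.0292 in limma), with a signal above background in liver cells only among the somatic cultures; with slide as a block it did not pass (adjusted p = 0.187 in limma). Lower in iPS lines were 8 genes, among them the peptidases ACE (at least 8.12-fold) and DPEP1 (-3.21 ± 0.48; adjusted p = 0.00334 in limma), the PDZK1-bound receptor SCARB1 (-1.65 ± 0.21; adjusted p = 0.00182 in limma), the scaffold NHERF2 (-2.11 ± 0.18; adjusted p = 0.000577 in limma) and the anhydrase CA12 (at least 2.36-fold). The other 3 were TREH (-0.95), SLC34A1 (-0.91) and SLC5A2 (-1.40). ACE and CA12 were well above background in somatic cells only and entered the test through them, so their place among the 8 was favoured by the filter. With slide as a block TREH (adjusted p = 0.0745 in limma) and SLC34A1 (adjusted p = 0.0847 in limma) did not pass, and the counts were 1 higher and 6 lower. ES lines also had 2 genes higher and 8 lower than somatic cells, with EZR in place of TREH among the lower, beside 34.2% of probes higher and 29.7% lower. In iPS lines the scaffold NHERF1, which also binds apical transporters, differed by 0.56 (adjusted p = 0.0592 in limma). Of the 6 tested NHERF1 probes, 1 gave the opposite sign. Ezrin, EZR, differed by -0.68 (adjusted p = 0.105 in limma), and neither gene passed the test. Both passed with a replicate block (adjusted p = 0.0420 for NHERF1 and 0.0165 for EZR in limma) and with normexp (0.0151 and 0.0123). With normexp background correction 3 genes were higher and 12 lower. Without scaling, which moved the median of all probes to 1.03, the counts were 3 higher and 5 lower. In iPS lines TREH (0.06), SLC34A1 (0.10), EZR (0.34), SLC15A1 (0.58), SLC5A1 (0.40) and SLC4A4 (0.19) then turned from lower to higher. SLC5A2 kept its direction but was not called (adjusted p = 0.236 in limma). The median over the 15 genes was 0.10 without scaling, against -0.91 with it. Over all tested probes 34.2% were called higher in iPS lines and 32.4% lower, or 9865 and 9359 probes, against 16898 and 3589 without scaling and 7521 and 15230 with normexp.

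Within pluripotent cells, the list genes that were well above background in the groups compared gave the following largest differences, none of which passed the test. PRKCZ, the only other tested gene of the tight junction list, gave -0.08 for iPS minus ES and 0.49 for late minus early. In the peptidase list the iPS minus ES difference was -0.66 for TREH and -0.36 for MME, and the late minus early difference was 0.42 for MME and -0.29 for TREH. Among PDZK1's partners the iPS minus ES difference was -0.50 for SLC5A1, -0.38 for SLC34A1, 0.38 for EZR and -0.29 for SLC5A2. Of the 4 tested SLC5A1 probes, 1 gave the opposite sign there. The late minus early difference was -0.56 for EZR, -0.37 for SLC5A1 and 0.35 for NHERF2. ACE and CA12 were not well above background on any iPS or ES array, and DPEP1, SLC15A1 and SLC4A4 were so on only some iPS arrays, so no such differences are given for them.

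**Figure D5:**
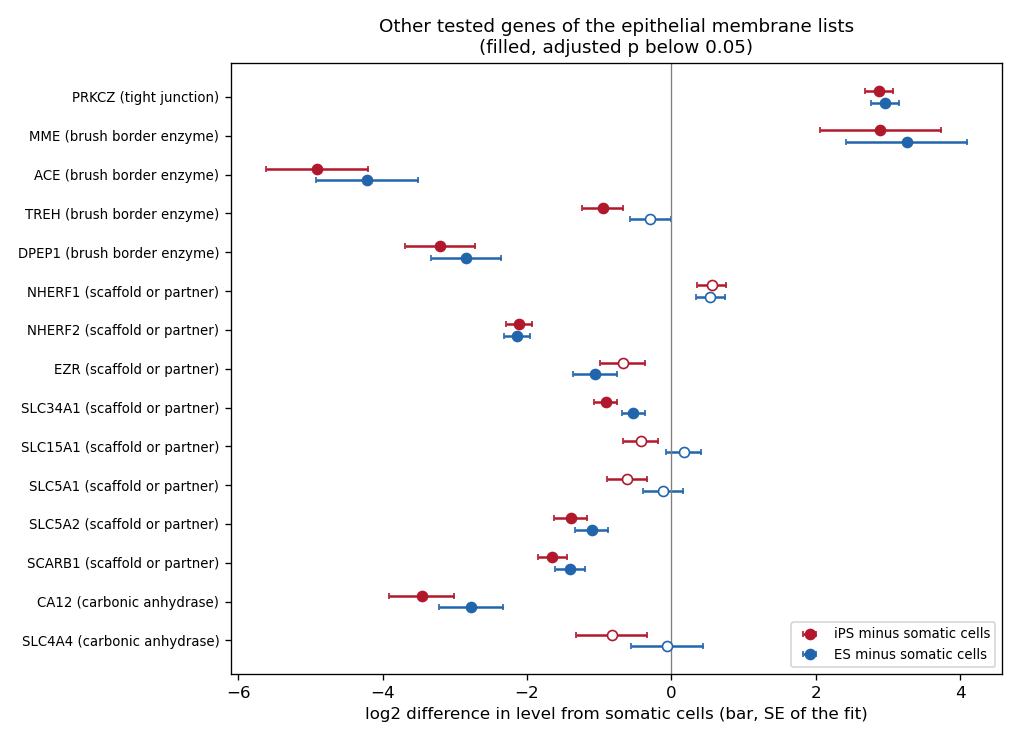
Difference in level from somatic cells for the 15 other tested genes of the lists, in log2 units, for iPS lines (red) and ES lines (blue), with bars of 1 SE; filled markers passed the test. PRKCZ and MME lie above 0 and 8 genes lie below 0 among those that passed for iPS lines. Of these, ACE and CA12 are drawn at iPS and ES readings not well above background. Without scaling, TREH, SLC34A1, EZR, SLC15A1, SLC5A1 and SLC4A4 lie above 0 for iPS lines. The calls are a description, because the lists were chosen with earlier results of these data known.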

How the data were processed

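Total RNA was labelled with Cy3 and hybridised to 8 one-colour Agilent arrays, per the labels' protocols. The deposited scanner files hold intensity per spot, made with Agilent Feature Extraction 10.5.1.1 per the file headers. The authors' value table holds log2 values, which matched the levels below after centring each probe on its median over arrays (r = 1; column medians -0.042 to 0.342). gProcessedSignal was averaged over the spots of a probe without outlier spots (19 probes dropped), converted to log2 and set relative to each array's 75th percentile. Tests used limma 3.58.1 in R 4.3.3 over 28854 probes well above background on both arrays of at least 1 group, with Benjamini-Hochberg adjustment and a threshold of 0.05, two-sided. iPS against ES and against somatic cells used 6 samples, with passages of a line averaged. Passage comparisons used 8 arrays in 4 groups. Probes were named through RefSeq accessions, 1932 probes of 680 genes, leaving 41652 unnamed. The number of arrays limits the precision, and saturated spots were 0. The normexp alternative had been planned on gMeanSignal, which the files lack, so gMedianSignal and gBGMedianSignal with an offset of 50 were used.

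The members and lists were chosen with earlier results of these data known, and 1 gene of the lists is not reported here. Named genes were the 6 members, the 3 nearest profiles of each, and in each list up to 4 genes with the largest iPS minus ES and late minus early differences; list genes named against somatic cells were chosen after their values were seen. The same iPS lines at both passages pair late with early arrays, and deviations of same-numbered arrays correlated at 0.224 (late and early iPS), 0.148 and 0.122 (ES with early and late iPS) and 0.011 to 0.021 (with somatic cells). Alternatives were quantile normalization, no scaling, normexp, no filter on dim probes, the authors' table, slide as a block, averaging a gene's probes, leaving out each array and a replicate block. Checks on simulated data were run first.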

Additional observations from a re-analysis of the deposited data

Results flagged for a closer look

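ANPEP moved in opposite directions with passage in the iPS lines: late minus early was 0.25 log2 units (0.252) in the liver line and -0.29 (-0.286) in the stomach line. The difference between the lines was not tested. Changes of at least those sizes were found in 43.2% and 34.8% of tested probes.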

How the results depend on the processing

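None of the 6 genes was called for iPS against ES, late against early passage, or either passage against ES under any of the 16 alternatives each. The replicate block changed no call of the 6 genes; it left CA4 at 1.15 between passages (adjusted p = 0.217 in limma). Over all tested probes, calls numbered 0 to 2 for iPS against ES (0 as reported), 0 to 8 for late against early (8), 0 to 19 for early against ES (12) and 0 to 8 for late against ES (6) over the alternatives (with the replicate block 0, 0, 19 and 0), and 9915 with slide as a block for iPS against somatic cells (19224). Against somatic cells the replicate block added NHERF1 and EZR for iPS lines and NHERF1 for ES lines among the list genes, and ended the call of SLC34A1 for ES lines (adjusted p = 0.0626 in limma).

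The median difference from somatic cells (4.87 for iPS, 5.60 for ES) was 5.24 and 5.98 with quantile normalization, 5.88 and 6.48 without scaling and 1.66 and 1.84 with normexp, 4.31 for iPS with slide as a block, and 4.49 to 5.25 (iPS) and 5.22 to 5.83 (ES) when leaving out an array. Without scaling the median iPS minus somatic difference of all probes was 1.03, against 0.016 with it and -0.40 with normexp. Small differences turned sign: with slide as a block LIPH -0.29 and ANPEP 0.52 (iPS minus ES), ANPEP 0.53 (early) and 0.51 (late minus ES); with quantile normalization CXADR 0.0015 and ANPEP 0.056, and with normexp CXADR 0.034 (late minus early); PDZK1 late minus ES 0.014 without scaling and 0.029 with normexp; against somatic cells CLDN1 0.33 (iPS) and 0.71 (ES) without scaling, and ANPEP -0.59 and -0.33 with normexp. Leaving out 1 array gave late minus early ranges of -0.14 to 0.11 for CXADR, -0.22 to 0.76 for CLDN1, -0.018 to 0.19 for PDZK1 and -0.24 to 0.21 for ANPEP. It gave LIPH -0.11 to 0.44 for iPS minus ES and -0.44 to 0.11 for late minus ES, and CA4 -1.02 to 0.33 for late minus ES. Against somatic cells it gave ANPEP -1.32 to 2.33 (iPS) and -0.99 to 2.66 (ES) and CLDN1 -0.43 to 0.10 (ES). The cause was not tested.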
